A study of Caenorhabditis elegans with 10 samples.

Results

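The transcriptome of *clk-2* mutant worms at 20°C was compared with that of N2, the wild-type strain of *Caenorhabditis elegans*. The members are the 4 libraries that the labels assign to *clk-2* and to N2 at 20°C, 2 per strain, of 10 libraries in the series. The remaining libraries come from *smg-1* and *smg-2* mutants at 20°C (2 each) and from *clk-2* and N2 after 3 hours at 25°C (1 each). RNA was taken from whole young adults and depleted of rRNA, and the deposited table gives normalized read counts for 15106 genes.

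The *clk-2* strain carries *clk-2(qm37)*, a temperature-sensitive allele on chromosome III, together with an integrated transgene on chromosome II. This transgene, the R-2 reporter, places *gfp* downstream of an mCherry gene with a *lin-41* sequence in its 3' region, under the *dpy-30* promoter with *tbb-2* sequences and an *unc-119(+)* marker. Both fluorescent proteins are fused to histone H2B. The *smg-1(rrr59)* and *smg-2(rrr60)* strains carry another integrated reporter (R-1), and N2 carries none, so the mutation and the transgene cannot be told apart in any comparison with N2. The permissive temperature of *clk-2(qm37)* is given differently in different places of the study, and one of them is 20°C. The name of the *clk-2* columns matches no single allele. The labels do not say that the libraries of a strain came from separate cultures, and the p-values then measure only the spread between these libraries.

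CLK-2 is the nematode TEL2 protein. In yeast and mammals, TEL2 works with TTI1 and TTI2 and the R2TP chaperone complex to assemble and stabilize large kinases of the PIKK family, among them ATM, ATR, mTOR and SMG1. SMG1 phosphorylates the helicase UPF1 (SMG-2 in worms) in nonsense-mediated mRNA decay (NMD), the pathway that degrades messages with premature stop codons. Worms with reduced *clk-2* function develop and behave slowly, and strong alleles are lethal or sterile. The question addressed here was which genes other than those raised in the *smg* mutants differ between *clk-2* mutants and N2.

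The libraries differed in depth. Replicate 1 of *clk-2* held 3523986 counted reads and replicate 2 held 14209955, against 13755869 and 12253389 in N2, and 1 read was worth 2.59 normalized counts in the shallow *clk-2* library but between 0.643 and 0.781 in the other libraries of *clk-2* and N2. Replicates differed beyond sampling noise in every strain. Chi-square per degree of freedom was 23 for N2 and 8.37 for *clk-2*. This value grows with read depth, so with a shallow *clk-2* library it does not rank the strains. In N2, replicate 1 was more than 2-fold below replicate 2 in 743 genes (5.36% of those tested) and more than 2-fold above it in 106 (0.764%). Defining transcripts of intestine, muscle, neurons, hypodermis, oocytes and sperm were found in all 4 libraries. The mutated gene, *clk-2* (WBGene00000537, chromosome III, 7515222 to 7518524), had 497 and 670.0 in *clk-2* mutants, against 598 and 485 in N2. The strains overlapped at this gene (log2 fold change 0.10). Of the sequences in the reporter, *unc-119* had 67.3 and 51.4 in *clk-2* mutants, against 18.9 and 16.4 in N2 (log2 fold change 1.68, SE 0.27, adjusted p = 0.0015 by limma) and was also raised in the *smg* mutants, while *lin-41* had 1506 and 1750 in *clk-2* mutants, against 1232 and 1120 in N2, and stayed under 2-fold (log2 fold change 0.47, SE 0.13, adjusted p = 0.024 by limma).

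Differences were tested with limma on log2(normalized count + 1). All 8 libraries grown at 20°C entered a single fit, and 13869 genes averaged 10 or more normalized counts across them. A gene was called up or down at a change of more than 2-fold with an adjusted p below 0.05 over all genes. Fold changes on this scale understate the change of genes with low counts. In *clk-2* mutants 1006 genes (7.25%) were up and 1362 (9.82%) were down, while the median log2 fold change of all genes tested was 0.018. A gene counted as raised in the *smg* mutants if it was more than 2-fold up in either of them with an unadjusted p below 0.05. By this rule 312 of the up-regulated genes were set aside, which left 694 (5.0% of the genes tested), called here up apart from the *smg* mutants. In all 694 of these the lower *clk-2* library exceeded the higher N2 library, and in all 1362 that fell the reverse held, against 29.9% and 28.9% of all genes. The calls were made on these same libraries, so this separation follows largely from the calling and is not separate evidence. Leaving out the shallow *clk-2* library lowered the number of up-regulated genes to 545 (369 apart from the *smg* mutants) and that of down-regulated genes to 1350.

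The libraries from 25°C had no part in these calls. Of the 694 genes up apart from the *smg* mutants, 492 (70.9%) were more than 2-fold higher in *clk-2* than in N2 at 25°C too, against 12.7% of all genes tested. Of the 1362 genes that fell, 411 (30.2%) were more than 2-fold lower at 25°C, against 6.19% of all genes. The median log2 difference at 25°C was 1.73 for the first group and -0.66 for the second. With 1 library of each strain, the values at 25°C have no replicate check. The *clk-2* library at 25°C was the shallowest of the series, with 3051836 reads against 11637545 in N2 at 25°C. In it 1 read was worth 2.93 normalized counts, so genes with few reads there are imprecise.

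**Figure D1:**
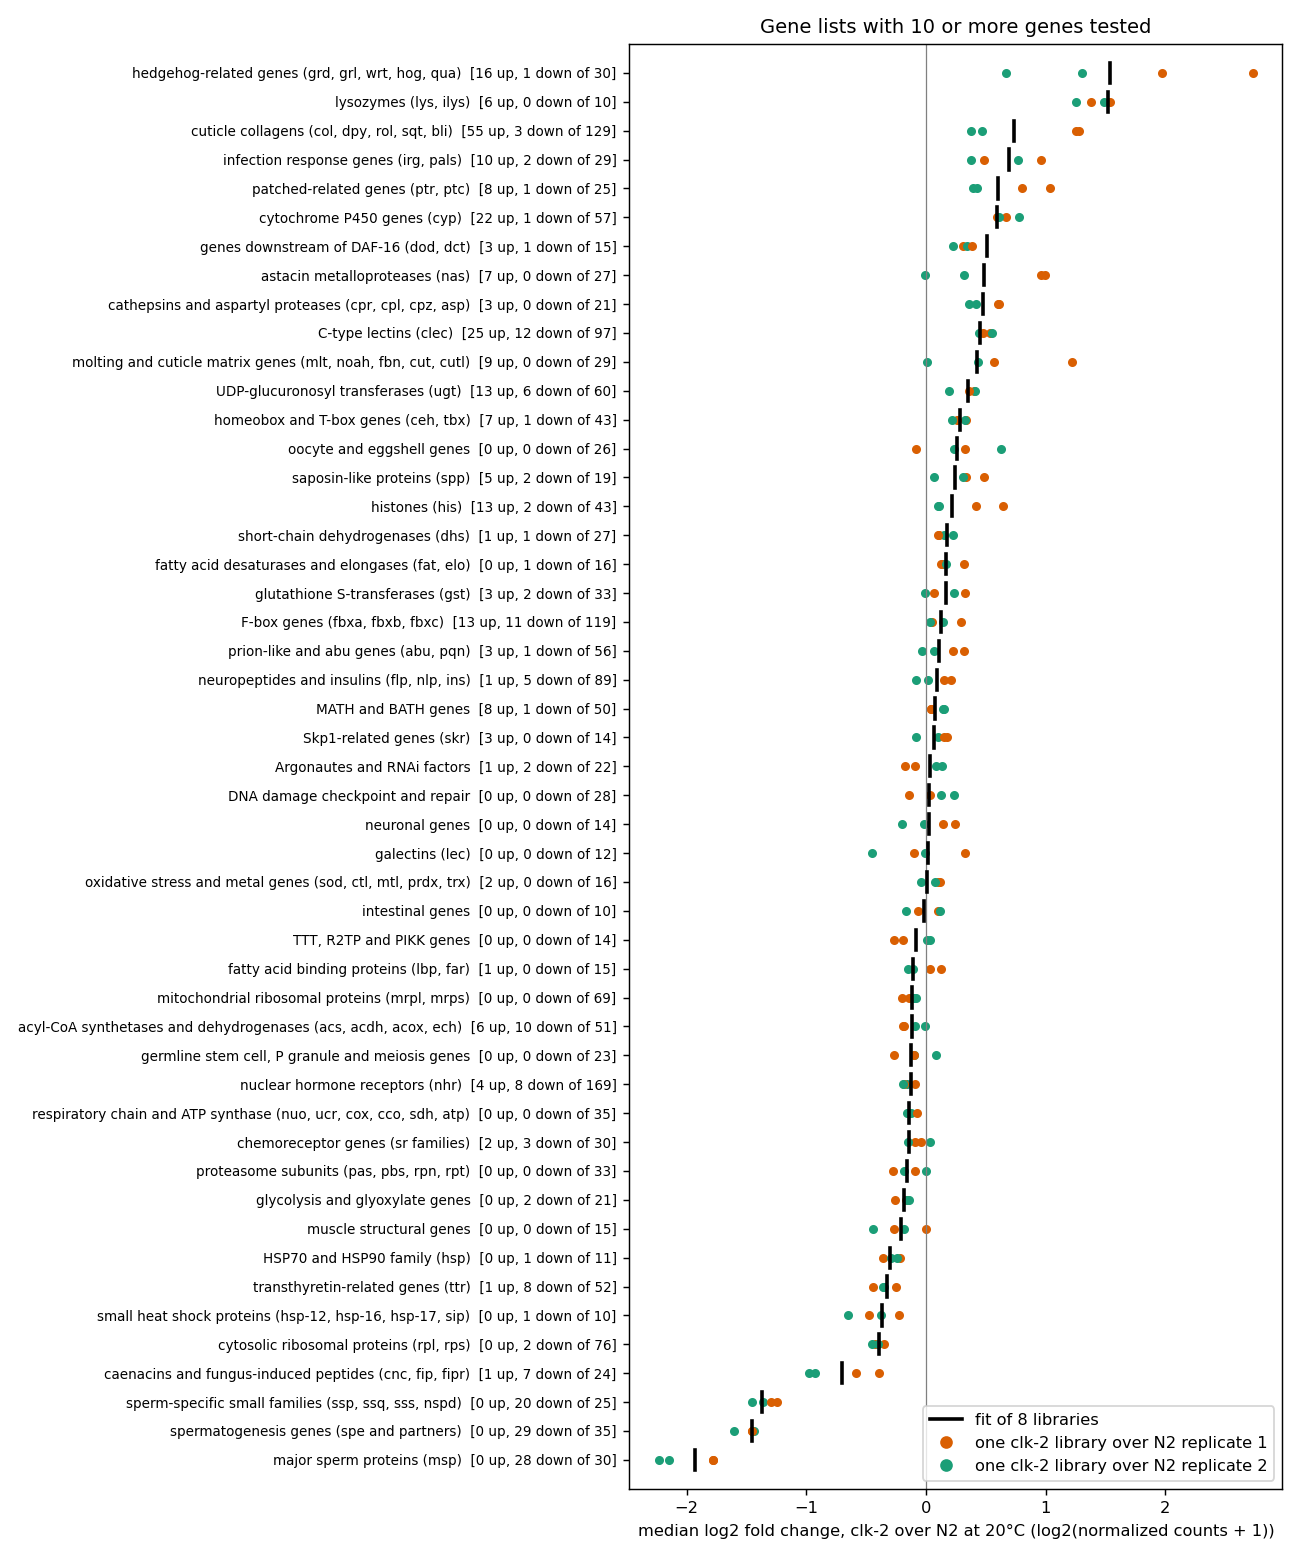
Median log2 fold change of *clk-2* over N2 at 20°C for each gene list with 10 or more genes tested. Black bars give the fit of 8 libraries and points give the 4 pairings of 1 *clk-2* with 1 N2 library, coloured by the N2 library, and the numbers of genes called up and down stand beside each name. The 3 sperm lists lie lowest in every pair, and for the cuticle collagens and hedgehog-related genes the pairs with N2 replicate 1 lie well above those with N2 replicate 2.

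Genes of sperm fell together. In *C. elegans* hermaphrodites, sperm are made in the last larval stage and stored before the germline switches to oocytes, and transcription of sperm genes belongs to the time when they are made. Of the 90 genes in 3 sperm lists, 77 were down and 0 were up, against 9.82% of all genes down. The lists hold the major sperm proteins (MSP), which form the cytoskeleton of the crawling sperm, the small families *ssp*, *ssq*, *sss* and *nspd*, and the genes of spermatogenesis and sperm function such as the *spe* genes. Every gene of the 3 lists had a log2 fold change below 0, the highest being -0.59, -0.34 and -0.025, and edgeR and DESeq2 also called 0 of them up. In whole animals, fewer sperm and less of each RNA per sperm cannot be told apart.

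Among the MSP genes 28 of 30 were down, with a median log2 fold change of -1.93. Their summed level was 6663 and 6837 normalized counts in *clk-2* mutants, against 23258 and 29917 in N2. The sum was 15799 and 15528 in *smg-1* and 19013 and 16420 in *smg-2*, between the levels of the other strains. *msp-3* had 67.3 and 133 normalized counts in *clk-2* mutants, against 639.7 and 590.3 in N2 (log2 fold change -2.69, SE 0.27, adjusted p = 1.01e-04 by limma). Members of this family are near-identical copies and reads with several matches were dropped, so single genes are uncertain. In the small sperm families 20 of 25 genes were down (median -1.37), and *nspd-3*, for instance, had 56.9 and 83.6 in *clk-2* mutants, against 321 and 325 in N2 (log2 fold change -2.21, SE 0.19, adjusted p = 5.55e-05 by limma). The sum of these families was 6935 and 5959 in *clk-2* mutants, against 16151 and 18140 in N2, and 13627 and 12890 in *smg-1* and 14358 and 13467 in *smg-2*.

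Genes that act in making and activating sperm showed the same direction, 29 of 35 down with a median of -1.45. *spe-18* had 150.1 and 158 in *clk-2* mutants, against 608 and 739 in N2 (log2 fold change -2.11, SE 0.13, adjusted p = 2.14e-05 by limma). *gsp-3*, a protein phosphatase of sperm, had 171 and 148 in *clk-2* mutants, against 646 and 566 in N2 (-1.92 on the log2 scale), and *spe-10*, a palmitoyltransferase needed for sperm organelles, had 15.5 and 19.9 in *clk-2* mutants, against 68.04 and 70.3 in N2 (-1.91). The Argonautes *alg-3* and *alg-4*, which act with small RNAs in spermatogenesis, fell as well. *alg-3* had 135 and 172 in *clk-2* mutants, against 458 and 468 in N2 (log2 fold change -1.60). *alg-4* had 215 and 236 in *clk-2* mutants, against 746 and 704 in N2 (-1.68), and no *clk-2* library reached an N2 library for either gene. These genes were near the N2 level in the *smg* mutants (712 and 789 in *smg-1* and 948 and 749 in *smg-2* for *alg-4*), and *clk-2* was below the mean of both *smg* mutants (log2 difference -1.81, SE 0.12, adjusted p = 4.04e-06 by limma). The sperm lists held 18 to 22 of 25, 25 to 28 of 35 and 28 of 30 genes down with any one of the 4 libraries left out. At 25°C the medians were -1.47 for the MSP genes, -0.91 for the small families and -0.48 for the spermatogenesis genes.

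Oocyte and germline genes were not called down by limma. Of 26 oocyte and eggshell genes (*oma-1*, *rme-2*, *cbd-1* and others), 0 were called by limma, with a median of 0.26, and 8 had an unadjusted p below 0.05, all of them higher in *clk-2*. edgeR and DESeq2 each called 1 of the 26. Of 23 genes of germline stem cells, P granules and meiosis, 0 were called by limma, edgeR or DESeq2, 5 had an unadjusted p below 0.05 (1 higher, 4 lower), and the median was -0.12. Changes under 2-fold were not called, such as *glh-1* (log2 fold change -0.70, adjusted p = 0.0018 by limma) and *oma-2* (0.54, adjusted p = 0.026 by limma). The yolk protein genes had a median of -0.33. Only *vit-3* of 6 was down, with 1939 and 2656 in *clk-2* mutants, against 6272 and 5252 in N2 (log2 fold change -1.34, SE 0.24, adjusted p = 0.0029 by limma), and its level was also low in *smg-1* (1617 and 1875).

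**Figure D2:**
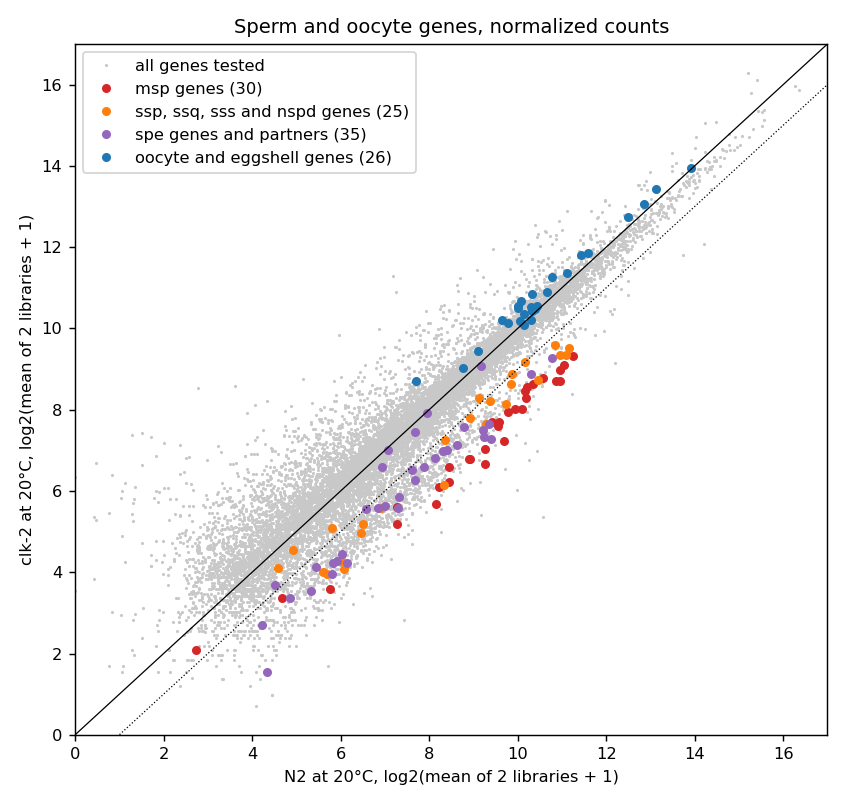
Mean level of each gene tested in *clk-2* mutants (vertical axis) and N2 (horizontal axis) at 20°C, both as log2(mean of 2 libraries + 1) in normalized counts, with the sperm and oocyte lists coloured. The solid line marks equal levels and the dotted line a 2-fold lower level in *clk-2*, and 77 of the 90 sperm genes were called down while the 26 oocyte genes stay near the solid line.

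Some epidermal peptides of the innate immune response fell, while 9.82% of all genes were down and 7.25% up. *nlp-29* encodes an antimicrobial peptide of the epidermis that is induced by fungal infection, wounding and osmotic stress. It had 106 and 109 normalized counts in *clk-2* mutants, against 1348 and 1092 in N2 (log2 fold change -3.49, SE 0.20, adjusted p = 1.48e-05 by limma), and 1234 and 1704 in *smg-1* and 1666 and 1135 in *smg-2*, so that both *clk-2* libraries were below all 6 others at 20°C. Genes of the same peptide group lie close to it on chromosome V. Of these *nlp-28* (WBGene00003766, chromosome V, 3987900 to 3988316) had 223 and 209 in *clk-2* mutants, against 1289 and 1192 in N2 (log2 fold change -2.52), and *nlp-31* (WBGene00003769, chromosome V, 3980055 to 3980622) had 153 and 121 in *clk-2* mutants, against 319.9 and 411 in N2 (-1.41). Of 89 genes for neuropeptides, peptides of this kind and insulins, 5 were down and 1 was up (0 to 3 up with single libraries left out), below the share of all genes in both directions. Among the caenacins and fungus-induced peptides (*cnc*, *fip*, *fipr*), 7 of 24 were down and 1 was up, with a median of -0.70 and between 5 and 9 down when single libraries were left out. Here a pair of neighbours on chromosome V moved in opposite directions. *cnc-4* (WBGene00000558, chromosome V, 1447195 to 1447707) had 33.6 and 50.8 in *clk-2* mutants, against 184 and 203 in N2, and *cnc-3* (WBGene00000557, chromosome V, 1448004 to 1448792) had 114 and 76.5 in *clk-2* mutants, against 13.3 and 27.3 in N2. In the *smg* mutants *cnc-4* was above N2 (967 and 1219 in *smg-1* and 387 and 368 in *smg-2*), the reverse of its change in *clk-2*. *gpdh-1*, the glycerol-3-phosphate dehydrogenase that makes glycerol under osmotic stress, had 135 and 196 in *clk-2* mutants, against 948 and 1045 in N2 (log2 fold change -2.61, SE 0.18, adjusted p = 2.35e-05 by limma).

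Some genes of fatty acid breakdown fell, while the median of their list was near that of all genes. *acs-2*, an acyl-CoA synthetase of mitochondrial β-oxidation that responds to fasting, had 129 and 120.2 normalized counts in *clk-2* mutants, against 1399 and 1384 in N2 (log2 fold change -3.47, SE 0.18, adjusted p = 1.00e-05 by limma). *acdh-2*, an acyl-CoA dehydrogenase, had 401 and 266 in *clk-2* mutants, against 2581 and 2232 in N2 (log2 fold change -2.87, SE 0.20, adjusted p = 2.51e-05 by limma). The same gene was at 56693 and 61900 in *smg-1* and 36112 and 26504 in *smg-2*, far above N2, so that *clk-2* and the *smg* mutants lay on opposite sides of N2. *icl-1*, which carries the 2 enzymes of the glyoxylate cycle, had 4051 and 3147 in *clk-2* mutants, against 14599 and 12548 in N2 (-1.92 on the log2 scale). Over 51 acyl-CoA synthetase, dehydrogenase, oxidase and enoyl-CoA hydratase genes, 10 were down and 6 were up (3 apart from the *smg* mutants), with a median of -0.12. Without *clk-2* replicate 1, 3 were up, and 1 was up apart from the *smg* mutants without that library or N2 replicate 2. The other direction is seen in *ech-9*, an enoyl-CoA hydratase family gene also raised in the *smg* mutants, with 179 and 142 in *clk-2* mutants, against 14.03 and 18.7 in N2. Of 16 desaturase and elongase genes only the elongase gene *elo-8* was called, with 20.7 and 36.01 in *clk-2* mutants, against 173 and 173 in N2 (log2 fold change -2.61, SE 0.25, adjusted p = 8.02e-05 by limma). At 25°C, with 1 library of each strain, the log2 difference was -0.18 for *elo-8*, against -3.82 for *acs-2*, -2.85 for *acdh-2* and -1.60 for *icl-1*. Of the 21 genes of glycolysis and the glyoxylate cycle 2 were down (9.52%, near the 9.82% of all genes). These were *icl-1* and the phosphofructokinase gene *pfk-1.2*, the latter with 80.2 and 78.4 in *clk-2* mutants, against 231 and 223 in N2.

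Among the down-regulated genes that averaged at least 100 normalized counts in the 4 libraries, the largest fall was that of *C06B3.7* (WBGene00007366, chromosome V, 13909686 to 13911585), with 38.8 and 41.8 normalized counts in *clk-2* mutants, against 1504 and 1551 in N2 (log2 fold change -5.21, SE 0.24, adjusted p = 9.27e-06 by limma). The adjacent gene *C06B3.6* (WBGene00007365, chromosome V, 13908130 to 13908967) had 122 and 165 in *clk-2* mutants, against 845 and 1446 in N2 (-2.96). Since the strand setting of the counting is not stated, reads of overlapping or antisense genes cannot be separated. *parg-2*, a poly(ADP-ribose) glycohydrolase, which removes ADP-ribose chains from proteins, had 77.7 and 51.4 in *clk-2* mutants, against 1030 and 997 in N2 (log2 fold change -3.98, SE 0.21, adjusted p = 1.00e-05 by limma). It was also below N2 in all 4 *smg* libraries (454 and 581 in *smg-1* and 935 and 707 in *smg-2*), yet lower again in *clk-2* (log2 difference -3.33, SE 0.18, adjusted p = 1.55e-06 by limma). *pgp-6*, a P-glycoprotein of the ABC transporter family, had 683 and 449 in *clk-2* mutants, against 4958 and 4515 in N2 (-3.09). *irg-2*, a gene induced by pathogens, had 80.2 and 66.2 in *clk-2* mutants, against 448 and 693 in N2 (-2.92), and *hsp-16.41*, a small heat shock protein, had 7.77 and 4.50 in *clk-2* mutants, against 30.2 and 40.6 in N2 (-2.37). Its counts were low at 20°C, and at 25°C it had 158 in *clk-2* and 735 in N2. *C09B8.4* (WBGene00015623, chromosome X, 6018442 to 6019936) had 33.6 and 49.5 in *clk-2* mutants, against 591 and 556 in N2, and 1777 and 2217 in *smg-1* and 738 and 492 in *smg-2*. It was above N2 in both *smg-1* libraries, while the *smg-2* libraries lay on either side of N2. For each gene of this paragraph the libraries of *clk-2* and N2 at 20°C did not overlap, and for all but *hsp-16.41* the choice of the gene required this. At 25°C, *parg-2* had 111 in *clk-2* and 154 in N2 (log2 difference -0.46), and *irg-2* had 138 and 142 (-0.045). The log2 differences there were -1.94 for *C06B3.7*, -1.31 for *C06B3.6*, -1.27 for *pgp-6*, -2.21 for *hsp-16.41* and -3.24 for *C09B8.4*.

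**Figure D3:**
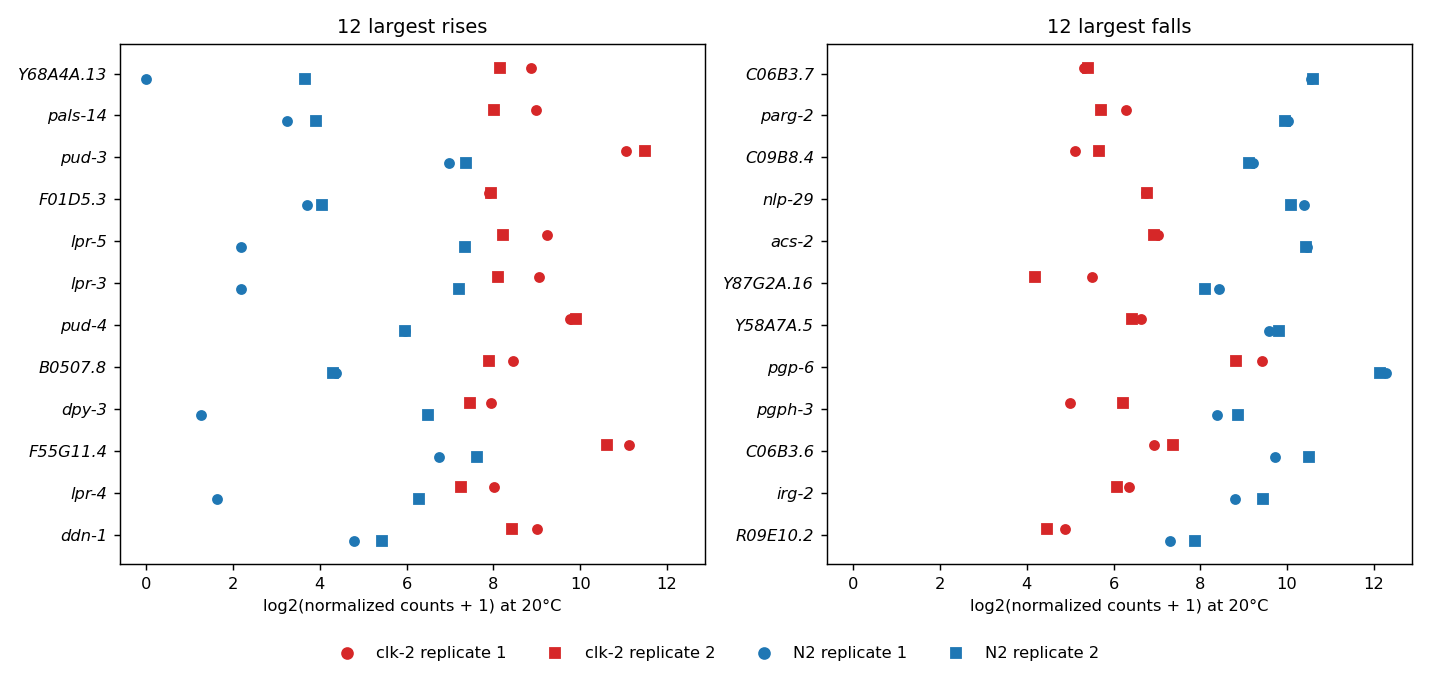
Levels in each *clk-2* and N2 library at 20°C, as log2(normalized counts + 1), of the 12 genes with the largest rises apart from the *smg* mutants and the 12 with the largest falls. They were chosen among genes called with a mean of at least 100 in the 4 libraries and no overlap between the strains. Every *clk-2* point (red) lies above both N2 points (blue) on the left and below both on the right, and for *lpr-3*, *lpr-4*, *lpr-5* and *dpy-3*, none of them called without N2 replicate 1, the N2 replicates lie far apart.

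Genes of the infection response were among the largest rises. The *pals* genes belong to the intracellular pathogen response, which microsporidia, viruses and proteasome stress induce. *pals-14* had 505 and 257 normalized counts in *clk-2* mutants, against 8.42 and 14.1 in N2 (log2 fold change 4.92, SE 0.41, adjusted p = 4.44e-05 by limma), with 13.8 and 9.42 in *smg-1* and 8.72 and 11.52 in *smg-2*. At 25°C it had 889.7 in *clk-2* and 7.47 in N2. Of 29 *pals* and *irg* genes 10 were up (34.5%), 6 of them apart from the *smg* mutants, and 2 were down (6.90%), with a median of 0.69. Of all genes, 7.25% were up, 5.0% up apart from the *smg* mutants and 9.82% down. *pals-39* had 163 and 123 in *clk-2* mutants, against 1.40 and 4.68 in N2, and was counted as raised in the *smg* mutants too, although their levels (7.45 and 12.8 in *smg-1* and 4.69 and 7.45 in *smg-2*) were far below that of *clk-2* (log2 difference 4.04, SE 0.43, adjusted p = 6.21e-05 by limma). Between 8 and 12 genes of the list were up with single libraries left out.

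Lysozymes, the enzymes that cleave bacterial cell walls, rose in 6 of 10 cases, 5 of them apart from the *smg* mutants, and 0 fell. Their median was 1.52. Without N2 replicate 2 only 2 were up apart from the *smg* mutants, and 1 gene was down without *clk-2* replicate 1 or without N2 replicate 1. *lys-1* and *lys-2* are neighbours on chromosome V. *lys-1* had 4908 and 5844 in *clk-2* mutants, against 1488 and 1674 in N2 (log2 fold change 1.76, SE 0.13, adjusted p = 3.02e-05 by limma), and *lys-2* had 1765 and 1038 in *clk-2* mutants, against 267 and 427 in N2 (log2 fold change 2.001, SE 0.38, adjusted p = 0.0038 by limma). *ilys-3*, an invertebrate-type lysozyme, had 139.8 and 59.8 in *clk-2* mutants, against 4.21 and 16.4 in N2 (3.28). The C-type lectin genes, a large family with many members induced by pathogens, moved both ways. Of 97 tested, 25 were up (25.8%, 16 genes apart from the *smg* mutants) and 12 were down (12.4%), against 7.25% and 9.82% of all genes. The log2 fold changes of the lectin genes ran from -2.83 to 5.32, with a median of 0.45. *clec-47* was among those that fell, with 82.8 and 62.4 in *clk-2* mutants, against 495 and 470.0 in N2, and *clec-70*, raised to a lesser degree in the *smg* mutants, was among those that rose, with 171 and 109 in *clk-2* mutants, against 2.81 and 5.47 in N2. With single libraries left out, 19 to 29 of these genes were up (10 to 18 apart from the *smg* mutants, the lowest without N2 replicate 2) and 11 to 13 were down.

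Many genes of detoxification enzymes rose. Of all genes tested, 7.25% were up, 5.0% were up apart from the *smg* mutants and 9.82% were down. Near these shares, 10% of the UDP-glucuronosyl transferases were down, and 9.09% of the glutathione S-transferases were up and 6.06% down. Cytochrome P450 enzymes oxidize foreign and endogenous lipophilic compounds, and 22 of 57 *cyp* genes were up (16 apart from the *smg* mutants) with 1 down (0 to 2 with single libraries left out) and a median of 0.60. *cyp-35A1* had 124 and 43.7 in *clk-2* mutants, against 2.81 and 5.47 in N2 (log2 fold change 3.92, SE 0.62, adjusted p = 0.0014 by limma), and *cyp-13B2* had 51.8 and 45.7 in *clk-2* mutants, against 4.91 and 3.90 in N2 (3.20). The UDP-glucuronosyl transferases, which conjugate such compounds, gave 13 up (7 apart from the *smg* mutants) and 6 down of 60, and 8 up without *clk-2* replicate 1. Without that library or N2 replicate 2, 4 were up apart from the *smg* mutants. *ugt-43* had 163 and 122 in *clk-2* mutants, against 16.8 and 20.3 in N2 (log2 fold change 2.87, SE 0.36, adjusted p = 3.80e-04 by limma), and *ugt-65* had 197 and 159 in *clk-2* mutants, against 23.1 and 37.5 in N2 (2.54). Glutathione S-transferases were called in few cases, 3 up and 2 down of 33, with 1 up without N2 replicate 1 and 1 down without *clk-2* replicate 1. *gst-6* had 834 and 534 in *clk-2* mutants, against 173 and 219 in N2 (1.78). *sdz-24*, named for its dependence on the transcription factor SKN-1, had 458 and 431 in *clk-2* mutants, against 86.98 and 95.3 in N2 (log2 fold change 2.27, SE 0.19, adjusted p = 4.69e-05 by limma). *mtl-1*, a metallothionein that binds heavy metals, had 129 and 152 in *clk-2* mutants, against 11.9 and 15.6 in N2, and was also raised in the *smg* mutants. *sod-3*, a mitochondrial superoxide dismutase, had 38.8 and 70.7 in *clk-2* mutants, against 11.2 and 18.7 in N2 (log2 fold change 1.78, SE 0.44, adjusted p = 0.014 by limma), but its log2 fold change was 1.36 without *clk-2* replicate 2 and 1.44 without N2 replicate 1, and it was not called in either fit.

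The *pud* and *ddn* genes, known for high expression in animals with low insulin signalling and in dauer larvae, were up in 6 of 6 cases (median 3.25), all apart from the *smg* mutants. In *smg-1* and *smg-2* their medians were -2.15 and -1.52, below N2. *pud-4* had 867 and 964 normalized counts in *clk-2* mutants, against 61.7 and 61.7 in N2 (log2 fold change 3.87, SE 0.63, adjusted p = 0.0017 by limma), and 3.19 and 15.4 in *smg-1* and 4.69 and 17.6 in *smg-2*. *ddn-1* (WBGene00015227, chromosome V, 8758820 to 8760516) had 513 and 343 in *clk-2* mutants, against 26.7 and 42.2 in N2 (log2 fold change 3.60), and its neighbour *B0507.8* (WBGene00015225, chromosome V, 8760622 to 8762961) had 349 and 239 in *clk-2* mutants, against 19.6 and 18.7 in N2 (3.85). With either *clk-2* library or N2 replicate 1 left out, 5 of the 6 genes were called. Single protease and lipase genes rose as well. *asp-8*, an aspartyl protease gene, had 549 and 343 in *clk-2* mutants, against 67.3 and 60.1 in N2 (log2 fold change 2.75, SE 0.30, adjusted p = 1.70e-04 by limma), and *cpr-3*, a cathepsin B-like protease gene, had 401 and 273 in *clk-2* mutants, against 99.6 and 97.6 in N2 (1.74). Of the 21 cathepsin and aspartyl protease genes 3 were up and 0 were down, against 7.25% and 9.82% of all genes, with 5 up without *clk-2* replicate 2 or after quantile normalization. *lipl-2*, a lipase gene of the lysosomal acid lipase family, had 127 and 118 in *clk-2* mutants, against 42.1 and 52.3 in N2 (log2 fold change 1.37, SE 0.25, adjusted p = 0.0033 by limma), and 3 of 7 *lipl* genes were up. *far-8*, of the fatty acid and retinol binding proteins, was the only gene called of 15 in its list, with 639 and 635 in *clk-2* mutants, against 176 and 191 in N2 (1.79).

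By the same minimum of 100 normalized counts, the largest rise was in *Y68A4A.13* (WBGene00044212, chromosome V, 17207208 to 17208145), which had 463 and 282 normalized counts in *clk-2* mutants, against 0 and 11.7 in N2 (log2 fold change 6.67, SE 0.94, adjusted p = 7.00e-04 by limma). With N2 replicate 1 at 0 this fold depends on the pseudocount and on the N2 library, and it was 4.83 without N2 replicate 1 and 8.50 without N2 replicate 2. *F55G11.4* (WBGene00010124, chromosome IV, 12973624 to 12975603) had 2242 and 1561 in *clk-2* mutants, against 106 and 195 in N2 (log2 fold change 3.69, SE 0.27, adjusted p = 2.57e-05 by limma). *F01D5.3* (WBGene00008494, chromosome II, 13999059 to 14000144) had 238 and 246 in *clk-2* mutants, against 11.9 and 15.6 in N2 (4.05). The highest *smg* library had 6.85 normalized counts of *Y68A4A.13*, 269 of *F55G11.4* and 30.5 of *F01D5.3*, and *clk-2* was above the mean of the *smg* mutants (log2 difference 3.24, SE 0.23, adjusted p = 6.11e-06 by limma for *F55G11.4*).

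Histone genes rose in part. Of 43 tested, 13 were up (30.2%), all apart from the *smg* mutants, and 2 were down (4.65%), with a median of 0.22. Of all genes, 7.25% were up, 5.0% up apart from the *smg* mutants and 9.82% down. The N2 replicates lay apart here. The summed level was 159340 and 114470 in *clk-2* mutants, against 53004 and 100650 in N2, and at 25°C 190220 in *clk-2* and 132360 in N2. The log2 fold change of *his-50* was 1.97 without N2 replicate 1 and 4.35 without N2 replicate 2. At 25°C the median was 0.0019. The reporter of the *clk-2* strain carries histone H2B sequences that N2 lacks, and the part that its reads had in the counts of H2B genes was not tested. The 4 with the largest changes were genes of histone H4, and *his-5* had 2335 and 2471 in *clk-2* mutants, against 300.2 and 527 in N2 (log2 fold change 2.59, SE 0.28, adjusted p = 1.65e-04 by limma) while *his-1* had 2415 and 3138 in *clk-2* mutants, against 439.8 and 645 in N2 (2.37). They are near-identical copies, counted from uniquely mapped reads only, so that the share of each copy is uncertain. With single libraries left out, 11 to 17 histone genes were up and 1 to 4 were down. In the *smg* mutants *his-5* had 474 and 554 in *smg-1* and 259.6 and 453 in *smg-2*.

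A few genes for SCF adaptors and transcription factors rose. Of the *skr* genes 21.4% and of the homeobox and T-box genes 16.3% were up, against 7.25% of all genes. The shares down were 0% and 2.33%, below the 9.82% of all genes. Of 14 *skr* genes, which encode adaptors of SCF ubiquitin ligases, 3 were up, among them the neighbours *skr-7* and *skr-14* on chromosome V. *skr-14* had 36.2 and 64.3 in *clk-2* mutants, against 9.12 and 8.59 in N2, and *skr-7* had 31.1 and 81.02 in *clk-2* mutants, against 12.6 and 5.47 in N2. Without *clk-2* replicate 2 none of the list was called (1.92 for *skr-14* and 1.77 for *skr-7* on the log2 scale), and without N2 replicate 2 *skr-7* was at 1.91 and not called. In the homeobox and T-box list 7 of 43 were up and 1 was down, with 2 up without N2 replicate 2 and 4 up without *clk-2* replicate 2. *ceh-39*, a ONECUT homeobox gene of the X chromosome dosage signal, had 90.6 and 86.8 in *clk-2* mutants, against 41.4 and 28.9 in N2 (log2 fold change 1.33, SE 0.26, adjusted p = 0.0043 by limma). *nhr-2*, a nuclear hormone receptor expressed in early embryos, had 62.1 and 105 in *clk-2* mutants, against 26.7 and 21.9 in N2 (log2 fold change 1.70, SE 0.34, adjusted p = 0.005 by limma). *pes-10*, a marker of the early embryo that was below the filter on low values, had 2.59 and 34.1 normalized counts in *clk-2* mutants, against no read in either N2 library. Of the embryonic markers *ceh-51*, *hlh-1* and *elt-1*, 0 were called by limma, edgeR or DESeq2, with log2 fold changes of 0.91, 0.21 and -0.01. *ceh-51* had an unadjusted p below 0.05 and 25.9 and 22.5 normalized counts in *clk-2* mutants, against 9.82 and 15.6 in N2, without overlap. Adults carry embryos, and the part that their number and stage had in these values was not tested.

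Genes of the cuticle and its renewal rose in large numbers, but here the N2 replicates disagreed. The cuticle is a collagen coat made by the epidermis, and collagens, matrix proteins, hedgehog-related ligands and patched-related receptors are transcribed in waves at each larval molt. Of 129 cuticle collagen genes 55 were up (33 apart from the *smg* mutants) and 3 were down, with a median of 0.73. Of all genes, 7.25% were up, 5.0% up apart from the *smg* mutants and 9.82% down. The summed collagen level did not rise, with 436340 and 459880 normalized counts in *clk-2* mutants, against 447050 and 473900 in N2. The collagen gene *col-19* had 14211 and 16740 in *clk-2* mutants, against 20056 and 18477 in N2 (log2 fold change -0.32). With the number apart from the *smg* mutants in brackets, hedgehog-related genes gave 16 up (13) and 1 down of 30 (median 1.54), molting and matrix genes 9 up (9) and 0 down of 29 (median 0.43), patched-related genes 8 up (6) and 1 down of 25 (median 0.60), and astacin metalloproteases 7 up (4) and 0 down of 27 (median 0.48). The medians of these lists were above 0 in *smg-1* as well. They were 0.61 for collagens, 0.52 for hedgehog-related, 0.61 for molting, 0.59 for patched-related and 0.94 for astacin genes. In *smg-2* they were 0.00063, 0.205, 0.24, -0.0080 and 0.31 in the same order. *noah-1*, a matrix protein of the zona pellucida family, had 1750 and 992 in *clk-2* mutants, against 65.9 and 632 in N2 (log2 fold change 2.68, SE 0.78, adjusted p = 0.029 by limma), and 241 and 175 in *smg-1* and 122 and 138 in *smg-2*. *wrt-10*, a hedgehog-related gene of the warthog class, had 753 and 406 in *clk-2* mutants, against 11.2 and 215 in N2 (log2 fold change 3.43, SE 0.99, adjusted p = 0.028 by limma). *lpr-5*, a lipocalin-related protein of the apical matrix, had 601 and 296 in *clk-2* mutants, against 3.51 and 162 in N2 (log2 fold change 3.96, SE 1.26, adjusted p = 0.042 by limma), and its neighbours on chromosome X *lpr-3* and *lpr-4* had log2 fold changes of 3.89 and 3.68. Both lost their call without N2 replicate 1 or either *clk-2* library, and in edgeR and DESeq2. *rol-6*, a collagen gene of the body shape, had 857 and 580.0 in *clk-2* mutants, against 43.5 and 273 in N2 (log2 fold change 2.68, SE 0.63, adjusted p = 0.011 by limma). For each of these genes N2 replicate 1 was far below N2 replicate 2, and *clk-2* replicate 1 was above replicate 2.

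The median log2 difference of N2 replicate 1 minus replicate 2 was -1.2 for the collagens, -1.53 for the hedgehog-related genes, -0.67 for the molting genes and -0.61 for the patched-related genes, but -0.0034 over all genes tested. Without N2 replicate 1, the genes up numbered 24 collagens, 12 hedgehog-related, 4 molting, 2 patched-related and 0 astacin genes. Without *clk-2* replicate 1 they were 4, 2, 1, 1 and 0, and without *clk-2* replicate 2 they were 27, 12, 4, 7 and 3. DESeq2 called 16, 10, 3, 5 and 6. Without N2 replicate 2 the numbers were 66, 18, 13, 11 and 12, but only 3, 1, 2, 3 and 0 of these were apart from the *smg* mutants, whose changes were then also measured against N2 replicate 1 alone. Without *clk-2* replicate 1 *noah-1* (2.27), *wrt-10* (2.99), *lpr-5* (3.454) and *rol-6* (2.40) all lost their call, and *lpr-5* was at 1.37 and not called without N2 replicate 1. Without *clk-2* replicate 2 *noah-1* (3.09), *wrt-10* (3.88) and *lpr-5* (4.47) were not called either. Without N2 replicate 1 *noah-1* was at 1.06, *wrt-10* at 1.36 and *rol-6* at 1.36, and these kept their call. edgeR called neither *noah-1* nor *lpr-5*, and DESeq2 called neither of them nor *wrt-10*. The log2 fold changes of *noah-1*, *wrt-10*, *lpr-5* and *rol-6* were above 0 in every fit that left out 1 library. The 4 pairs of libraries gave medians from 0.38 to 1.28 for the collagens and from 0.67 to 2.73 for the hedgehog-related genes. At 25°C the medians were 1.73 and 1.80, and *noah-1* had 904 in *clk-2* and 171 in N2. Among all 694 genes up apart from the *smg* mutants, 265 (38.2%) had N2 replicate 1 more than 2-fold below replicate 2, against 5.36% of all genes tested. The part that stage had in this, or any other difference between the N2 samples, was not tested.

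**Figure D4:**
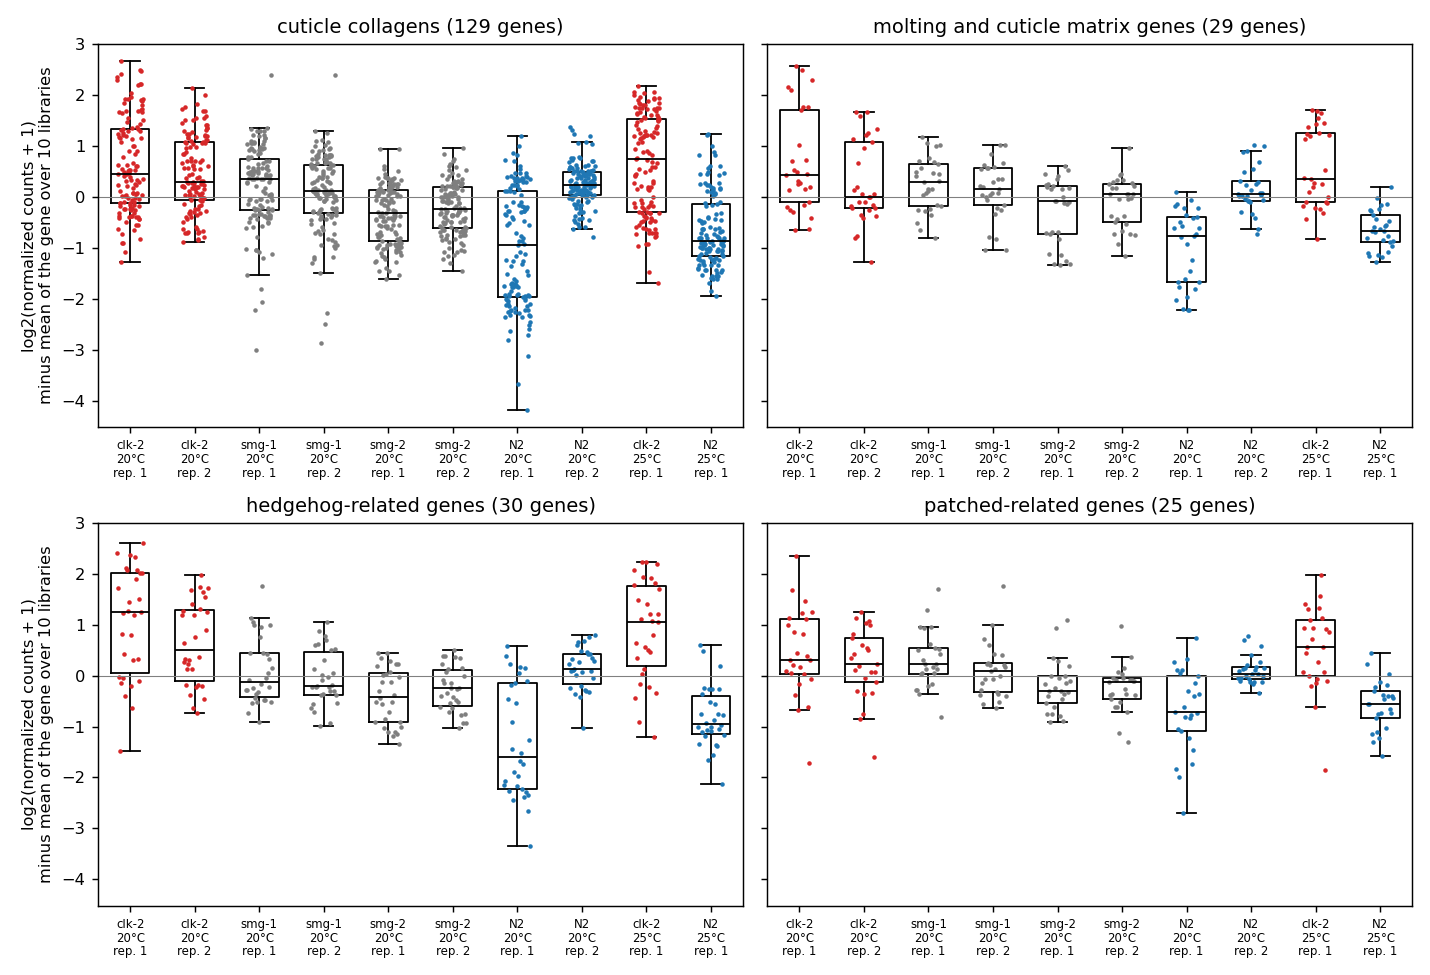
Levels of 4 groups of cuticle and molting genes in each of the 10 libraries, as log2(normalized counts + 1) minus the mean of the gene over all libraries, with 1 point per gene, boxes for the quartiles and whiskers to 1.5 times their range. Libraries of *clk-2* are red, *smg-1* and *smg-2* grey and N2 blue, and the median of N2 replicate 1 lies below that of N2 replicate 2 in all 4 groups.

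Large families of protein degradation and of nuclear receptors had genes called in both directions. Of the F-box genes 10.9% were up (13 genes, 6 of them apart from the *smg* mutants) and 9.24% were down (11 genes), against 7.25% and 9.82% of all genes, and 3 to 9 were up apart from the *smg* mutants with single libraries left out. Of 50 MATH and BATH genes 8 were up (3 apart from the *smg* mutants) and 1 was down, with 3 to 9 up (2 to 5 apart) and 0 to 2 down when single libraries were left out. *math-37* had 85.4 and 46.3 in *clk-2* mutants, against 3.51 and 3.12 in N2 (log2 fold change 3.89, SE 0.56, adjusted p = 7.62e-04 by limma). Nuclear hormone receptor genes gave 4 up and 8 down of 169, below the share of all genes in both directions, and DESeq2 called 4 of them down. Transthyretin-related genes had 8 down and 1 up of 52 (median -0.32), with 5 down and 0 up without N2 replicate 2 and 0 up without *clk-2* replicate 2.

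Many core functions had no gene called at the 2-fold limit. In 14 of the 61 lists, holding 298 genes tested, 0 genes were called by limma, while edgeR and DESeq2 each called 1, and 65 had an unadjusted p below 0.05 (25 higher and 40 lower in *clk-2*). Of these 65 genes 0 changed more than 2-fold, so the calls leave out any smaller change in these lists. With a single library left out, at most 1 gene of any of these lists was called. They include 28 genes of the DNA damage checkpoint and repair (median 0.029), 14 genes of the TTT and R2TP complexes and PIKK kinases (-0.082), 33 proteasome subunits (-0.16), 69 mitochondrial ribosomal proteins (-0.12) and 35 subunits of the respiratory chain and ATP synthase (-0.14). Structural genes of muscle (15, median -0.20), neuronal genes (14, median 0.028) and intestinal genes (10, median -0.019) were in this set too. Their named members include *myo-2* of the pharynx, with 3875 and 3302 in *clk-2* mutants, against 4811 and 5338 in N2 (-0.50, adjusted p = 0.012 by limma), and *ges-1*, an intestinal esterase, with 629 and 552 in *clk-2* mutants, against 306 and 458 in N2 (0.65, adjusted p = 0.0265 by limma). Both stayed under 2-fold. The cytosolic ribosomal proteins had 2 of 76 genes down (1 to 4 with single libraries left out) and 0 up with a median of -0.39, and the medians of the 4 library pairs were from -0.45 to -0.35. Of these genes 0 were called up by edgeR or DESeq2 either. The shift was small but shared, with 75 of the 76 genes below 0. In 63 both *clk-2* libraries were below both N2 libraries, as in 28.9% of all genes. The median was -0.21 after quantile normalization and -0.65 at 25°C, so its size depended on the normalization.

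Changed genes were unevenly spread over the chromosomes. The share of genes tested that fell was 2.55% on X, against 8.0% on III, 8.69% on V, 11% on II, 12.7% on I and 14.8% on IV. For genes up apart from the *smg* mutants it was 7.87% on X, 7.04% on V, 5.83% on II, 4.56% on IV, 2.56% on III and 2.34% on I. Chromosome III, which carries *clk-2*, had the second lowest share of falls and of rises apart from the *smg* mutants, and II, which carries the transgene, had neither the highest nor the lowest of either. Genes of the mitochondrial genome and genes without a chromosome in the annotation are left out of these shares. Of the genes that fell, the sperm lists held 36 of 348 on IV and 19 of 294 on I, but 0 of 48 on X. These shares are descriptions, since neighbouring genes and members of one family are not independent.

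**Figure D5:**
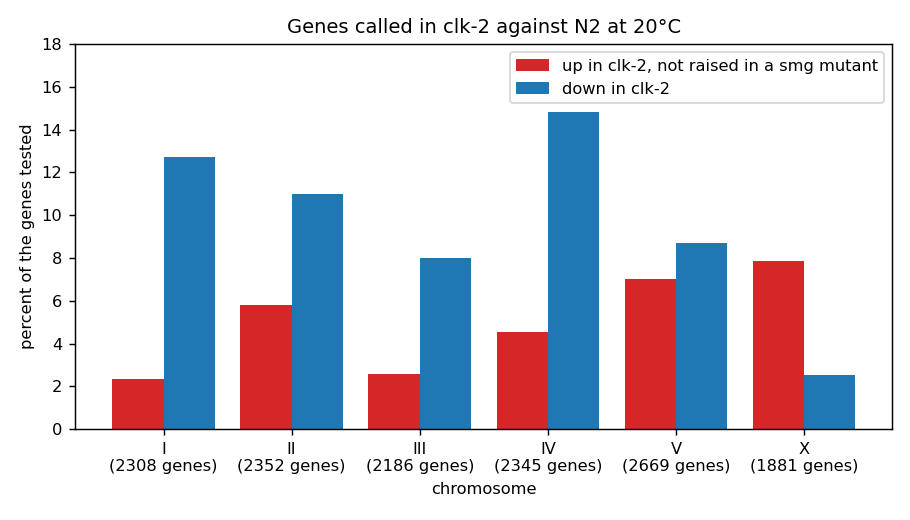
Percent of the genes tested on each chromosome that were up in *clk-2* apart from the *smg* mutants (red) and down in *clk-2* (blue) at 20°C, with the number of genes tested under each chromosome. The X chromosome had 7.87% up and 2.55% down, and chromosome IV had 4.56% up and 14.8% down.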

How the data were processed

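According to the study's methods, the authors depleted rRNA from whole young adults, prepared libraries with a ScriptSeq kit (the labels also name a TruSeq kit), mapped reads to WBcel235 with STAR 2.5.4a, kept reads with a single match and counted those on exons of protein-coding genes. The strand setting is not given in the sources used here. The deposited signal values are read counts that the authors divided by 1 DESeq2 size factor per library. Every value came out as a whole number of reads within 0.001 (100% of values), and no column lacked a sample.

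Groups were taken from the labels. Fold changes came from limma 3.58.1 in R 4.3.3 (lmFit, then eBayes with a trend) on log2(value + 1), with Benjamini-Hochberg adjustment over 13869 genes. The main design had no replicate block. On simulated *clk-2* and N2 reads for these 13869 genes, limma recovered 97% of 200 genes changed at a log2 fold change of 2, with 7 unchanged genes called, edgeR 4.0.16 recovered 96% and DESeq2 1.42.0 recovered 93.5%. The simulated libraries shared the same spread within each gene and held no gap between N2 replicates like that in the data. These rates check the code and are not error rates of the calls made here. Gene names came from Ensembl and RefSeq tables, which covered 14967 and 14720 of the 15106 genes. No sequence is printed, since no genome or sequence table was used here.

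Genes named were the 12 largest rises apart from the *smg* mutants and the 12 largest falls among called genes that averaged 100 or more in the 4 libraries and no overlap between strains, the same 12 and 12 among genes with a class name, up to 4 called genes per list (for tissue lists also uncalled ones), *clk-2*, *unc-119* and *lin-41*, and a part of these is described. *pes-10*, a marker below the filter, was added after its values were seen. The members, the 61 lists and the tests were chosen with earlier results of these data known. Alternatives were pseudocounts of 0.1 and 10, no filter or a mean of at least 100, unadjusted p-values, *clk-2* and N2 alone, the replicate block, quantile normalization, edgeR and DESeq2 on the whole reads, thinned reads, 2 other ways of setting aside the *smg* genes, and leaving out each library.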

Additional observations from a re-analysis of the deposited data

Results flagged for a closer look

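In 4 of the named genes that were called up or down at 20°C, all 4 pairs of *clk-2* and N2 libraries at 20°C differed in one direction and the pair at 25°C in the other. *Y58A7A.5* had a log2 fold change of -3.17 at 20°C and a log2 difference of 0.45 at 25°C. *skr-7* had 2.45 at 20°C and -0.085 at 25°C. *ugt-10* had 2.24 at 20°C and -0.39 at 25°C. *ceh-39* had 1.33 at 20°C and -0.38 at 25°C. The difference between the temperatures was not tested, since 25°C had 1 library of each strain, that of *clk-2* being shallow.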

How the results depend on the processing

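Of the 1006 genes up, 1362 down and 694 up apart from the *smg* mutants, the rises depended most on the settings. With a mean of at least 100 there were 320 up, 696 down and 234 up apart from the *smg* mutants, because fewer genes were tested, and 74 in place of 158 named genes differed between *clk-2* and the mean of the *smg* mutants. With *clk-2* and N2 fitted alone, with fewer samples, 622 were up and 444 up apart. Leaving out single libraries gave 545 to 1213 up, 1240 to 1372 down, 369 to 647 up apart and 128 to 162 named genes that differed from the *smg* mutants. The lowest counts of rises were those without the shallow *clk-2* replicate 1. edgeR called 967 up and 1366 down, and DESeq2 766 and 1231. All other settings gave counts within 1.5 times, and no named gene that was called turned round in direction in any setting run. Similar counts did not mean the same genes. Of the 694 genes up apart from the *smg* mutants, edgeR also called 629 and DESeq2 512. Thinned reads kept 447 and the fit of *clk-2* and N2 alone 437. With single libraries left out, too, the set was only partly the same. With the replicate number as a block, 922 genes were up, 1343 down and 632 up apart. The deviations of *clk-2* and N2 libraries with the same number correlated at -0.27, so the numbers do not pair the samples, and with the *clk-2* numbers crossed (chosen after seeing the data) the counts were 1031, 1370 and 710. At 2.59 normalized counts per read, genes with few reads in *clk-2* replicate 1 are imprecise.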

Other observations

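Other gene families with many changed members were picked out by gene class after their values were seen, and are given as descriptions without a test. Several small families had many members down, while 9.82% of all genes were down. All 4 *msd* genes, which encode proteins with an MSP domain, were down (median log2 fold change -1.99), as were 6 of 6 *msrp* genes (median -1.40), 6 of 7 *nsph* genes (-1.70), 7 of 8 *ttbk* genes for tau tubulin kinase-like proteins (-1.49) and 7 of 10 *irld* genes for proteins with insulin receptor-like domains (-1.23). Of the 8 *wht* genes, ABC transporters of the White family, 5 were down (-1.45), of the 8 *scrm* genes for phospholipid scramblases 4 were down (-1.42), and of the 7 *sfxn* genes for sideroflexins 4 were down (-1.197). Neprilysin-like peptidase genes (*nep*) moved both ways, with 10 down and 3 up of 22.

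Among the rises, 5 of 7 *lpr* genes, 4 of 7 *hrg* genes for heme-responsive proteins, 5 of 9 *cdh* genes for cadherins and 3 of 5 *bus* genes, known from mutants with an altered surface, were up, with medians of 2.97, 1.36, 1.25 and 1.41. Apart from the *smg* mutants the numbers were 5, 3, 4 and 3. Of all genes, 7.25% were up and 5.0% up apart from the *smg* mutants. For *lpr-3*, *lpr-4* and *lpr-5* the N2 replicates lay far apart, and edgeR and DESeq2 called none of them.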
